A study of Homo sapiens with 15 samples.

Results

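The human glioma line U251 was given either of 2 short hairpin RNAs against LAMP2A, called 1812 and 1813, and the gene expression of the 2 resulting cell populations was compared directly. The comparison used 6 of the 15 RNA-seq libraries of the study, 3 with hairpin 1812 and 3 with hairpin 1813, chosen by the hairpin number in their labels. The other libraries were 3 of U251 control cells, 3 of U87 control cells and 3 of U87 cells labelled as carrying hairpin 1812. They stayed out of the fit and are quoted only beside its results.

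U251 and U87 are long-established lines grown from human malignant gliomas. Cells with a hairpin are labelled as stably transfected, and the controls carry the label WT, with no control hairpin or empty vector named. The labels do not say whether each hairpin population was 1 clone or a pool, nor whether the 3 libraries of a group came from separate cultures, so the p-values measure the spread between these libraries. LAMP2 was below the U251 controls in both populations, and the comparison asks which genes differ between 2 knockdowns of the same target in the same line.

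LAMP2A is 1 of the splice forms of LAMP2, a protein of the lysosomal membrane. In chaperone-mediated autophagy it is the docking site at the lysosome, to which the chaperone HSC70, encoded by HSPA8, brings single cytosolic proteins. A short hairpin RNA is cut by Dicer into a small interfering RNA, which Argonaute proteins use to find matching transcripts. Interferon-stimulated genes, which form the largest group in the results below, are antiviral genes switched on when type I interferon, such as interferon beta, reaches its receptor and activates transcription factors that bind a response element in their promoters.

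The 6 libraries held 14002652 to 15387704 counts on genes, and a gene with at least 1 count was seen for 23619 to 23836 genes with hairpin 1812 and for 22747 to 23524 with 1813. Levels are given as FPKM, the authors' values per length of exon and per library size, which can be compared between genes. In both groups replicate 1 stood apart: counting noise alone gives a chi-square per gene of about 1 between 2 libraries, and the observed values were 2.94 and 3.70 between replicates 2 and 3 of a group and 9.99 to 18.1 between replicate 1 and the others. Between hairpins it was 12.7 to 26.7. Among the U251 controls, replicates 2 and 3 differed from replicate 1 and from the hairpin libraries, with 3.36% and 3.26% of counts on mitochondrial genes against 1.25% to 1.81% in the other 7 U251 libraries. Of 13 astrocyte markers, 6 were under 1 FPKM in all 6 libraries, while VIM, GJA1, NES and SLC1A3 were expressed. All 10 microglia and leukocyte markers were under 1 FPKM, with AIF1, TYROBP and CD3E at 0, and their summed level was 1.07 to 1.39 FPKM with 1812 and 1.00 to 1.32 FPKM with 1813. Of the endothelial and pericyte markers 8 of 9 were under 1 FPKM (sums 3.94 to 4.61 and 4.19 to 4.59 FPKM), and of the oligodendrocyte markers 9 of 10, with SOX10 and MOG at 0 (22.7 to 27.3 and 20.6 to 25.2 FPKM). Neuron markers summed to 82.2 to 90.2 FPKM with 1812 and 63.2 to 79.5 FPKM with 1813, with NEFL the highest, DCX at 0 and 6 of 12 under 1 FPKM. Epithelial markers summed to 16.1 to 19.4 and 16.3 to 17.5 FPKM, with KRT18 the highest, KRT5 at 0 and 5 of 9 under 1 FPKM. The part of other cell types' genes in the results was not tested.

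LAMP2, the targeted gene (ENSG00000005893, chrX:120426148-120469365, GRCh38, minus strand), was measured over all of its splice forms, so the values do not separate LAMP2A. It stood at 35.4, 34.6 and 36.4 FPKM with hairpin 1812, at 40.5, 45.1 and 43.3 FPKM with 1813 and at 71.00, 81.4 and 82.8 FPKM in the U251 controls. All 6 hairpin libraries were below all 3 controls, and the 2 hairpin groups did not overlap. In bulk RNA, fewer cells with a transcript and less transcript per cell cannot be told apart. The means were 45.2% of the control mean with 1812 and 54.8% with 1813. Between the hairpins LAMP2 was 20.6% lower with 1812, with a 95% interval of 10.9% to 29.3%, a log2 fold change of -0.33 ± 0.08 (SE, n = 3 and 3) and an adjusted p of 0.0325 by edgeR's quasi-likelihood test with Benjamini-Hochberg adjustment. An exact two-sided permutation test over the 6 libraries gave p = 0.1, the smallest that 20 arrangements allow. The log2 fold change was -0.31 to -0.36 whichever library was left out, but groups without overlap leave the direction little room to change. The call did not hold: the adjusted p was 0.0689, 0.17 and 0.11 without 1812 replicate 1, 2 and 3, and 0.121 and 0.113 without 1813 replicate 2 and 3. It ranged from 0.000889 to 0.772 over 15 alternative fits.

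Of 14842 genes tested, 625 passed at an adjusted p under 0.05, which is 4.21%. Hairpin 1812 gave the higher level in 350 of them, 2.36% of genes tested, and the lower level in 275, 1.85%. A difference of at least 2-fold was found in 98 of the genes that passed, 0.66% of genes tested, and was more common among the gains: 85 genes were higher with 1812, 0.573% of genes tested, and 13 were lower, 0.0876%. The median size of the log2 fold change was 0.68 among the genes higher with 1812 and 0.44 among those lower. Protein-coding genes made up 323 of the 350 and 254 of the 275. The FPKM of the 2 groups did not overlap for 350 of the 350 higher genes and for 271 of the 275 lower genes. Choosing genes by p on the same 6 libraries favours such separation, so these counts are no separate support. The share over all genes tested is not given here.

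These counts depended on which libraries were in the fit. Counts of higher and lower genes were 197 and 148 without 1812 replicate 1, 59 and 21 without 1812 replicate 2, 91 and 26 without 1812 replicate 3, 761 and 622 without 1813 replicate 1, 208 and 118 without 1813 replicate 2, and 106 and 60 without 1813 replicate 3. With replicate 1 of both hairpins left out they were 1310 and 1272, and by DESeq2 on all 6 libraries they were 420 and 506. When the 3 control libraries of U251 shared the estimate of spread, 44 genes were higher and 20 lower. Each of the 89 genes chosen by rule besides LAMP2 kept its direction in all 15 alternative fits that gave it a value. None of them overlapped between hairpins, so the direction could hardly change when libraries were left out, and its constancy is no separate support. Of the 89, 8 passed in all 15: CPA4, IFIT2, ACP5 and BEX1, which were higher with 1812, and EMC4, GFPT2, TIMP3 and PAM, which were lower. Lost calls noted at genes below are mainly those with a single library left out, so genes without such a note can fail in other fits. Of the 89, 32 passed with the 9 U251 libraries in the fit and 10 with all 15 libraries. RSAD2 had an adjusted p of 0.06 with 9 libraries, and CCL5 0.598 with 15.

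**Figure D1:**
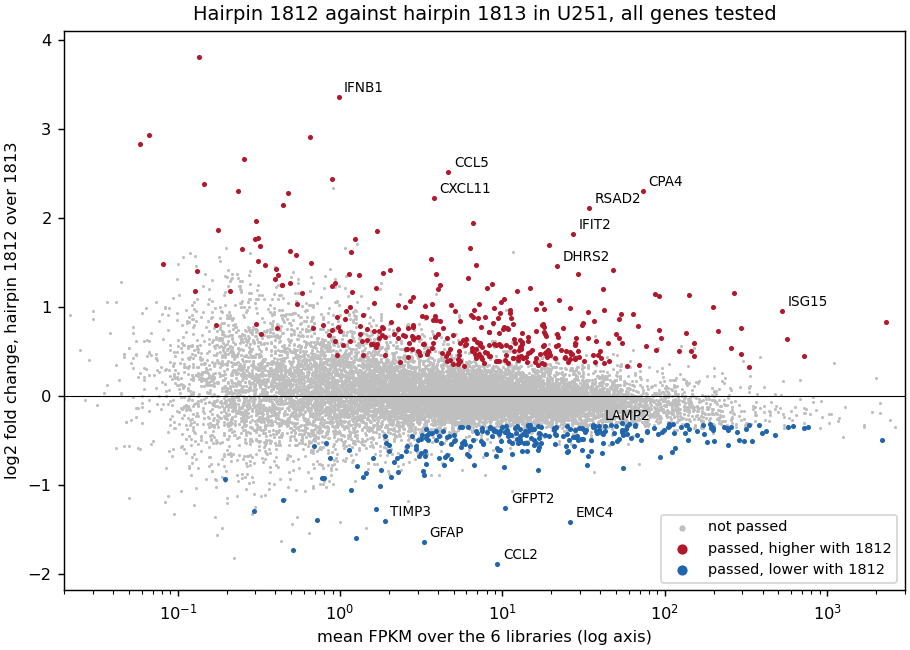
Log2 fold change of hairpin 1812 over 1813 (vertical axis) against the mean FPKM over the 6 libraries (horizontal log axis) for the 14842 genes tested, each a point. Red points are the 350 genes that passed and were higher with 1812, blue points the 275 that were lower, and the red points reach farther from 0 than the blue ones, with 85 against 13 at or beyond 2-fold.

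CPA4 encodes carboxypeptidase A4, a zinc enzyme that removes amino acids from the carboxyl end of peptides (ENSG00000128510, chr7:130293134-130324180, plus strand). It stood at 156, 105 and 108 FPKM with hairpin 1812 and at 28.7, 22.4 and 20.5 FPKM with 1813, and at 42.9, 41.9 and 41.5 FPKM in the controls. The 3 groups did not overlap: every 1812 library lay above, and every 1813 library below, all 3 controls. The log2 fold change was 2.30 ± 0.17 (SE, n = 3 and 3, adjusted p = 6.05e-05), a 4.92-fold difference. Of the 6 carboxypeptidase genes tested, CPE, which trims prohormones, also rose with 1812 (log2 fold change 0.58 ± 0.10, adjusted p = 0.00934) and AGBL5, which acts on tubulin, fell (-0.54 ± 0.10, adjusted p = 0.014). The CPE call was lost without 1812 replicate 2 or 3 (adjusted p 0.0503 and 0.0547) and the AGBL5 call without 1812 replicate 2 or 3 or 1813 replicate 3 (0.0981, 0.0668 and 0.0566). Over the 15 alternative fits their adjusted p ran from 0.00021 to 1 and from 0.000665 to 0.571.

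EMC4 had the smallest adjusted p of all genes tested. It encodes a subunit of the endoplasmic reticulum membrane protein complex, which inserts membrane proteins (ENSG00000128463, chr15:34225013-34230156, plus strand). Its level was 15.9, 13.7 and 14.2 FPKM with hairpin 1812 and 35.7, 39.5 and 37.3 FPKM with 1813, beside 32.9, 27.1 and 25.9 FPKM in the controls. The 1812 libraries were below all controls, and the 1813 libraries above them. The difference was 2.67-fold, a log2 fold change of -1.42 ± 0.09 (SE, n = 3 and 3, adjusted p = 1.67e-05). EMC4 was the only 1 of the 10 subunits tested that passed by edgeR, beside 4.21% of all genes tested. The others lay between -0.33 (EMC6) and 0.15 (EMC7) on the log2 scale, and the median over the 10 was -0.08, beside 0.00 over all genes tested.

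GFPT2 encodes a form of the enzyme that commits glucose to hexosamine synthesis, and it was lower with 1812 (chr5:180300698-180353336, minus strand). Its values were 6.34, 6.07 and 6.54 FPKM with 1812, 11.4, 16.2 and 16.1 FPKM with 1813 and 7.86, 12.9 and 11.7 FPKM in the controls. All 1812 libraries were below all 1813 libraries and all controls, while the 1813 and control values overlapped. The log2 fold change was -1.26 ± 0.12 (SE, n = 3 and 3, adjusted p = 0.000378). Among the 12 genes of the hexosamine pathway and of O-GlcNAc cycling, GFPT2 was the only 1 to pass by edgeR, beside 4.21% of all genes tested. The list's median was 0.05.

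DHRS2, a short-chain dehydrogenase/reductase, was higher with 1812 (chr14:23630115-23645639, plus strand). It measured 35.05, 31.8 and 29.3 FPKM with 1812, 6.07, 14.6 and 13.2 FPKM with 1813 and 12.8, 10.98 and 10.8 FPKM in the controls. The 1812 libraries lay above all others, and the 1813 and control libraries overlapped, 1813 replicate 1 being the lowest. The log2 fold change was 1.46 ± 0.22 (SE, n = 3 and 3, adjusted p = 0.00556). It no longer passed without 1812 replicate 2 (adjusted p = 0.0527, range 4.94e-45 to 0.0527 over the alternatives). None of the other 20 short-chain dehydrogenase genes tested passed by edgeR, where 8 of the 21 had an unadjusted p under 0.05 and DESeq2 passed 1 higher and 1 lower.

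**Figure D2:**
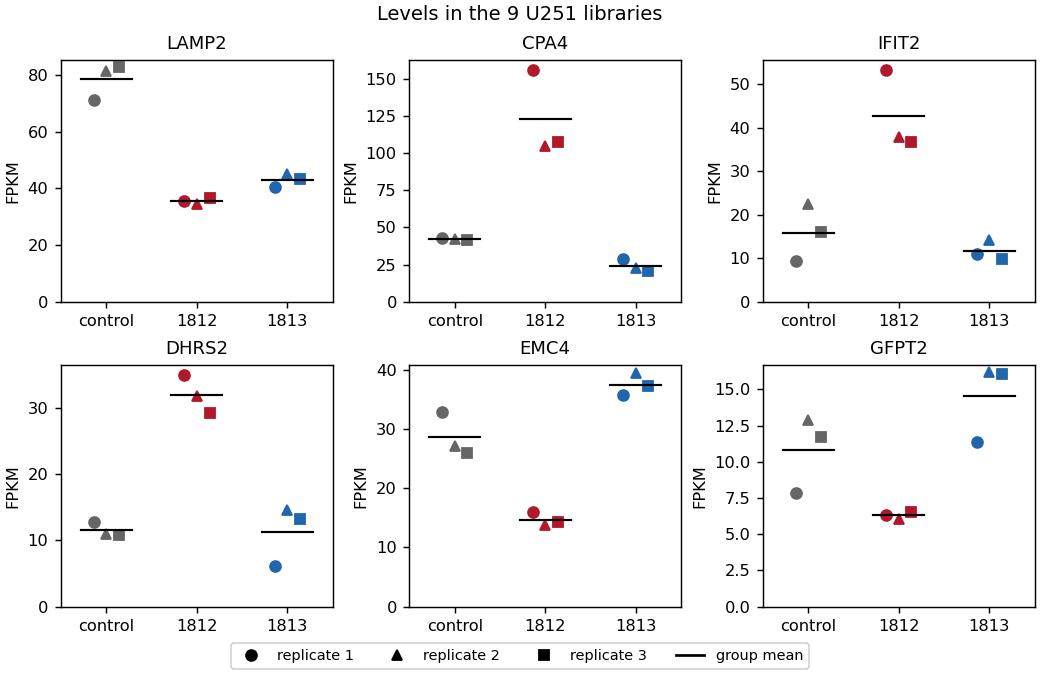
FPKM (vertical axes, from 0) of LAMP2 and of the 5 genes described first, in the 3 control, 3 hairpin 1812 and 3 hairpin 1813 libraries of U251, with a point per library, its shape giving the replicate number, and a line at the group mean. The hairpin groups do not overlap in any of the 6 panels, and only in the LAMP2 panel are both hairpin groups below all controls.

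The largest group of genes that differed was that of the interferon-stimulated genes. Of 37 tested, 31 were higher with 1812 and none was lower, against 2.36% and 1.85% of all genes tested. Of the 31, 11 differed by at least 2-fold. The 37 genes all had a positive log2 fold change, from 0.23 (IFI27) to 2.11 (RSAD2), with a median of 0.83 beside 0.00 over all genes. DESeq2 passed 32 of them as higher and 0 as lower. The number of passing members fell to 9, 6 and 10 without 1812 replicate 1, 2 and 3 and to 13 without 1813 replicate 3, and was 32 and 35 without 1813 replicate 1 and 2. It was 3 with the U251 controls in the fit. The median kept its sign in each of these fits and lay between 0.68 and 1.04 when a single library was left out.

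IFIT2, a tetratricopeptide protein that binds RNA and limits viral translation (chr10:89283694-89309271, plus strand), passed in all 15 alternative fits. Its level was 53.3, 37.8 and 36.7 FPKM with 1812, 10.8, 14.1 and 9.92 FPKM with 1813 and 9.32, 22.4 and 15.96 FPKM in the controls, so that every 1812 library was above every other U251 library. The log2 fold change was 1.82 ± 0.16 (SE, n = 3 and 3, adjusted p = 0.000137). RSAD2 encodes viperin, which makes a chain-terminating nucleotide. It had 56.5, 59.7 and 52.3 FPKM with 1812, 9.96, 18.03 and 9.58 FPKM with 1813 and 3.44, 14.9 and 13.7 FPKM in the controls (log2 fold change 2.11 ± 0.19, adjusted p = 0.000239). The 1812 libraries were again above all others.

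OASL, a relative of the 2-5A synthetases, stood at 41.5, 26.4 and 21.4 FPKM with 1812 and 6.58, 11.8 and 8.12 FPKM with 1813 (log2 fold change 1.70 ± 0.23, adjusted p = 0.00292), with 5.44, 11.01 and 9.96 FPKM in the controls. The ubiquitin-like modifier ISG15 was much more abundant, at 742, 691 and 683 FPKM with 1812, 265, 429.7 and 357 FPKM with 1813 and 292, 322 and 334 FPKM in the controls. The hairpin groups of both genes did not overlap, and the 1812 libraries were above all controls. The ISG15 difference was 0.96 ± 0.13 on the log2 scale (SE, n = 3 and 3, adjusted p = 0.00334).

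Other antiviral effectors were chosen for mention after their values were seen. The dynamin-like GTPases MX1 and MX2 had log2 fold changes of 1.04 ± 0.19 and 1.01 ± 0.20 (adjusted p = 0.014 and 0.0176), and the 2-5A synthetases OAS1 and OAS2 had 0.84 ± 0.17 and 0.77 ± 0.17 (0.0226 and 0.0296). OAS3, at 0.46 ± 0.12, did not pass (adjusted p = 0.0588). The membrane protein IFITM1 passed at 1.15 ± 0.21 (adjusted p = 0.0143), while IFITM2 and IFITM3, whose sequences resemble it, did not, at 0.51 ± 0.15 and 0.44 ± 0.13 (adjusted p = 0.0757 and 0.078). How reads shared by such copies were counted is not given, so the split between IFITM genes is uncertain. The most abundant member over the U251 libraries was IFI6, a mitochondrial protein that restrains cell death, at 3227, 2814 and 2919 FPKM with 1812 and 946, 1984 and 1928 FPKM with 1813 (log2 fold change 0.83 ± 0.20, adjusted p = 0.0376).

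The controls did not sit uniformly with either hairpin in this list. Summed over the 37 genes, the level was 7475, 6565 and 6599 FPKM with 1812, 2724, 4701 and 4168 FPKM with 1813, and 3551, 4292 and 4381 FPKM in the controls. The median member stood at 36.9, 30.4 and 27.1 FPKM with 1812, at 14.1, 21.8 and 13.95 FPKM with 1813, and at 13.0, 34.5 and 35.6 FPKM in control replicates 1, 2 and 3. For 15 of the 31 genes that passed, all 1812 libraries were above all 3 controls. For all 31 they were above control replicate 1, and for the same count of 15 they were above both other controls. For none of the 31 were all 1813 libraries below all controls. In 30 of the 31, control replicate 1 was the lowest control, in 28 the highest 1812 library was replicate 1, and in 29 the highest 1813 library was replicate 2. Whether these library differences contribute to the difference between hairpins was not tested.

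**Figure D3:**
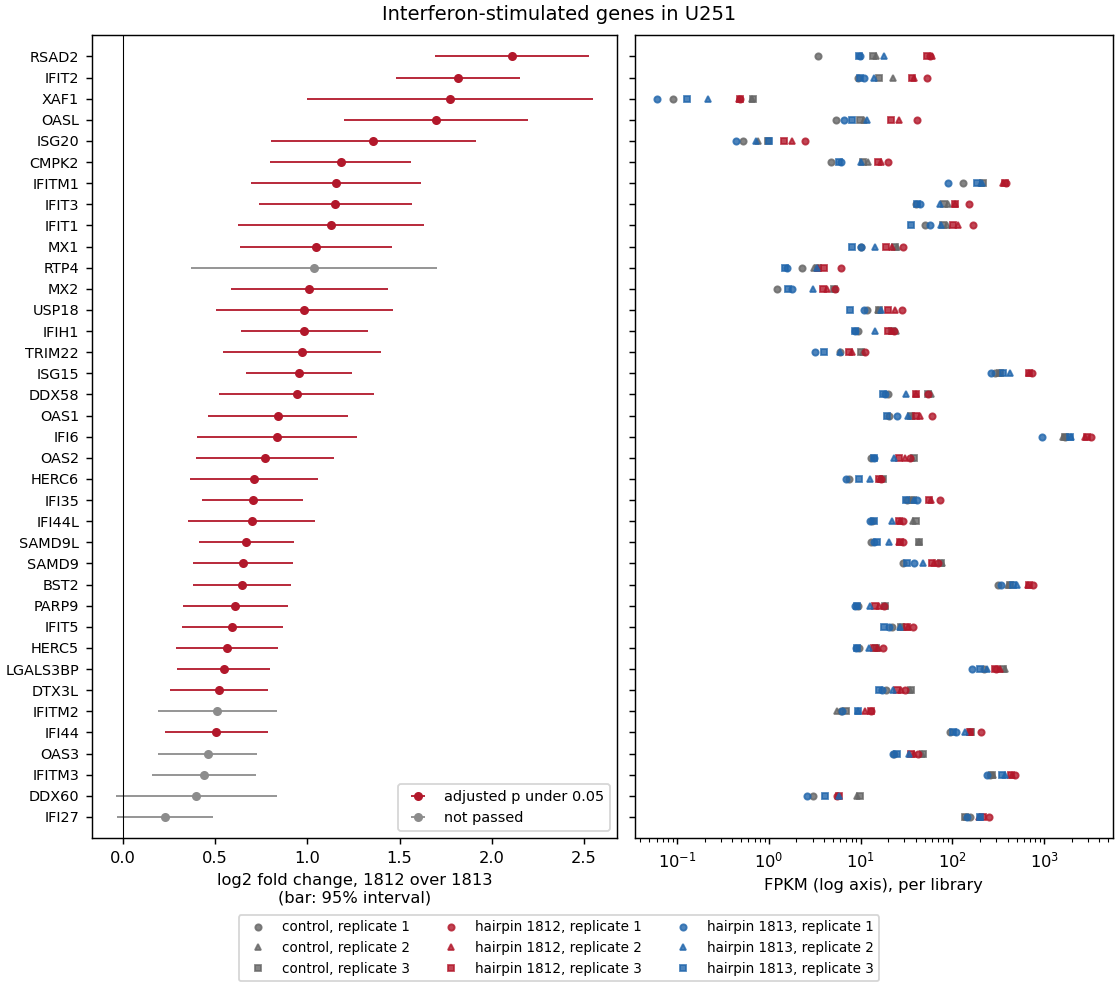
Interferon-stimulated genes tested in U251, ordered by their log2 fold change. The left panel gives the log2 fold change of hairpin 1812 over 1813 with its 95% interval, red where the adjusted p was under 0.05 (31 of 37), and the right panel the FPKM of each of the 9 libraries on a log axis. Red 1812 points lie to the right of blue 1813 points, and the gray points of control replicates 2 and 3 lie among or beyond the 1812 points for genes such as SAMD9L and IFI44L.

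The response element of these genes has a core of GAAA followed, after any 2 bases, by GAAA. Those letters were searched on both strands in the 250 bases before the gene starts listed by RefSeq (GRCh38.p14). Overlapping matches were allowed and counted as 1 promoter. Of the 29 interferon-stimulated genes with a listed promoter, 22 held the letters, which is 75.9%. The share was 15.8% of 259 genes that passed as higher with 1812, 4.23% of 213 that passed as lower, 3.51% of 10713 genes tested and 3.71% of all 27305 genes with a listed promoter. Counted per promoter instead of per gene, it was 3.02% of all 35116 listed promoters. Of those 259 genes, 41 held the letters. The 259 include 24 genes of the interferon-stimulated list, which hold 17 of these 41, so the first 2 shares overlap. A match says only that the letters occur in that window. Stretches of 4 such promoters that overlap no annotated exon are shown because they carry 1 to 3 matches in front of genes that rose with 1812. Each is written 5′ to 3′ on the strand of the gene, with the matches in capitals, in that form or as its reverse complement.
IFI6, chr1:27672246-27672378, minus strand: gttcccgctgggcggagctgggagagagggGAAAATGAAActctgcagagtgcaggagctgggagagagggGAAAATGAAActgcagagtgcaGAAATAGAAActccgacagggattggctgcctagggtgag
HERC5, chr4:88456964-88457084, plus strand: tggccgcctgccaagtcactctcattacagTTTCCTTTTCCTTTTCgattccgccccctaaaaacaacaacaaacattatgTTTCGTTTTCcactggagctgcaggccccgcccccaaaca
SAMD9, chr7:93118076-93118145, minus strand: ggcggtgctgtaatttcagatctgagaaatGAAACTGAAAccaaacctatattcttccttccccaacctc
B2M, chr15:44711343-44711418, plus strand: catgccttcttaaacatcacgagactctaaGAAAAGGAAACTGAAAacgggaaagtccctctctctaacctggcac
The first 3 belong to the interferon-stimulated list and the fourth to antigen presentation. HERC5, a ligase that attaches ISG15 to proteins, rose by 0.57 ± 0.13 on the log2 scale (adjusted p = 0.0302), and SAMD9, an inhibitor of poxvirus replication, by 0.65 ± 0.13 (adjusted p = 0.0174).

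Among 23 tested genes for RNA sensing and interferon signalling, 4 passed as higher with 1812 and 0 as lower by edgeR, beside 2.36% and 1.85% of all genes tested. The list had 11 unadjusted p under 0.05 and a median of 0.16. DESeq2 passed 4 as higher and 1 as lower, and 8 of the 23 had a negative log2 fold change. IFNB1, which encodes interferon beta, was low in all libraries, at 2.19, 2.13 and 1.09 FPKM with 1812 and 0.15, 0.16 and 0.16 FPKM with 1813, beside 0.78, 0.13 and 0.3 FPKM in the controls. That was 65 counts over the 3 libraries with 1812 and 6 over the 3 with 1813. The groups did not overlap, and the log2 fold change was 3.36 ± 0.52 (SE, n = 3 and 3, adjusted p = 0.00556), with the call lost without 1812 replicate 2 (adjusted p = 0.0518, range 1.32e-06 to 0.218 over 13 alternatives). DHX58, which encodes the RNA sensor LGP2, rose by 1.03 ± 0.17 (adjusted p = 0.00973). The sensors RIG-I and MDA5, counted in the interferon-stimulated list, rose by 0.94 ± 0.19 (DDX58, adjusted p = 0.0212) and 0.98 ± 0.16 (IFIH1, adjusted p = 0.00745).

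The double-stranded RNA receptor TLR3 was higher with 1812 than 1813 by 0.69 ± 0.15 (adjusted p = 0.0275) and the signal transducer STAT2 by 0.50 ± 0.12 (adjusted p = 0.0325). TLR3 stood at 3.06, 2.61 and 2.41 FPKM with 1812 and at 2.06, 3.59 and 3.84 FPKM in the controls. STAT2 stood at 16.1, 13.9 and 12.3 FPKM with 1812 and at 9.77, 20.5 and 20.05 FPKM in the controls. For both genes the 1812 libraries were above control replicate 1 and below control replicates 2 and 3. Both calls were lost without 1812 replicate 1, 2 or 3 or 1813 replicate 3, with adjusted p of 0.0869, 0.124, 0.0677 and 0.104 for TLR3 and of 0.0971, 0.152, 0.0575 and 0.129 for STAT2. Over all alternatives they ran from 0.00034 to 1 and from 0.000159 to 0.754. The adaptor MAVS (-0.21 ± 0.09), the kinase TBK1 (-0.02 ± 0.09) and the factor IRF3 (-0.08 ± 0.08) did not pass. In the list of 14 genes of small RNA processing, 1 passed, beside 4.21% of all genes tested. It was AGO1, an Argonaute, lower with 1812 (-0.45 ± 0.10, adjusted p = 0.0256, lost without 1812 replicate 2 or 3 or 1813 replicate 3 at 0.163, 0.111 and 0.0817, in a range of 0.000911 to 0.451).

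Genes of MHC class I antigen presentation were higher with 1812 for 6 of 17 tested and lower for none, beside 2.36% and 1.85% of all genes tested. Of the 17, 16 had a positive log2 fold change (median 0.44). TAP1, a subunit of the peptide transporter, stood at 81.4, 66.2 and 58.4 FPKM with 1812, 33.9, 41.6 and 33.3 FPKM with 1813 and 35.5, 44.6 and 43.8 FPKM in the controls (log2 fold change 0.86 ± 0.12, adjusted p = 0.00367). HLA-E, which presents peptides to natural killer cells, stood at 312, 261 and 232 FPKM with 1812 and 135, 169 and 161 FPKM with 1813 (0.74 ± 0.11, adjusted p = 0.0045), with 147, 161 and 165 FPKM in the controls. For both genes all 1812 libraries were above all other U251 libraries.

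B2M, the light chain of class I molecules whose promoter is printed above, rose by 0.45 ± 0.10 on the log2 scale (adjusted p = 0.0256), and TAP2, the other transporter subunit, by 0.44 ± 0.10 (adjusted p = 0.0284). TAP2 stood at 16.8, 16.6 and 15.6 FPKM with 1812, above control replicate 1 (11.1 FPKM) and below control replicates 2 and 3 (18.5 and 18.4 FPKM). The class I heavy chains HLA-B and HLA-C had 0.56 ± 0.25 and 0.36 ± 0.25 and did not pass (adjusted p = 0.234 and 0.467). Reads of HLA genes can fit several members, so their split is uncertain. The count of 6 fell to 2 without any single 1 of 1812 replicate 1, 2 or 3 or 1813 replicate 3. The B2M call was among those lost there (adjusted p = 0.066, 0.0921, 0.078 and 0.0699, range 3.58e-06 to 0.971 over the alternatives), as was that of TAP2 (0.0709, 0.154, 0.0824 and 0.107, range 0.00146 to 0.778).

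Chemokines moved in opposite directions. CCL5, which attracts T cells, stood at 9.70, 7.48 and 6.69 FPKM with 1812 and 0.65, 1.69 and 1.69 FPKM with 1813, beside 1.74, 1.26 and 1.61 FPKM in the controls. It had the largest fitted gain among the protein-coding genes that passed, did not overlap between hairpins and averaged 2 FPKM or more in whichever hairpin group was higher (2.52 ± 0.27 on the log2 scale, SE, n = 3 and 3, adjusted p = 0.000842). CXCL11, a ligand of CXCR3, stood at 7.25, 5.57 and 5.91 FPKM with 1812 and 0.99, 1.23 and 1.65 FPKM with 1813, with 0.76, 1.66 and 1.95 FPKM in the controls (log2 fold change 2.22 ± 0.21, adjusted p = 0.000256). For both, the 1812 libraries lay above all others, and the 1813 libraries overlapped the controls. CXCL10, another CXCR3 ligand, had 13.5, 6.20 and 6.91 FPKM and 3.76, 4.30 and 2.10 FPKM (1.33 ± 0.31, adjusted p = 0.036). Its call was lost without 1812 replicate 1, 2 or 3 or 1813 replicate 3 (adjusted p = 0.112, 0.0871, 0.078 and 0.105, range 1.59e-09 to 0.534).

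CCL2, which attracts monocytes, was lower with 1812. It stood at 4.89, 3.88 and 3.41 FPKM with 1812 and at 7.36, 17.3 and 19.1 FPKM with 1813, where replicate 1 was the lowest of the 3, beside 14.8, 19.96 and 17.2 FPKM in the controls. The 1812 libraries were below all others. The log2 fold change was -1.89 ± 0.28 (SE, n = 3 and 3, adjusted p = 0.00448), and the call was lost without 1812 replicate 2 (adjusted p = 0.0611, range 1.18e-34 to 0.476). In the list of 26 cytokines and NF-kB targets tested, 3 were higher and 1 was lower, with a median of -0.02. CXCL8 was the most abundant of the chemokines and did not pass (-0.17 ± 0.15, adjusted p = 0.587), nor did IL6 (0.26 ± 0.27) or NFKBIA (-0.32 ± 0.08).

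Genes of the immediate early response were higher with 1812 for 8 of 24 tested and lower for none, beside 2.36% and 1.85% of all genes tested. The list's median was 0.34. ATF3, a stress-induced repressor, stood at 13.1, 12.7 and 12.97 FPKM with 1812, 6.39, 6.92 and 6.20 FPKM with 1813 and 3.71, 4.63 and 5.54 FPKM in the controls (log2 fold change 0.93 ± 0.09, adjusted p = 0.000385). DUSP5, a nuclear phosphatase of ERK, had 13.2, 16.7 and 14.8 FPKM and 7.41, 7.63 and 8.35 FPKM (0.88 ± 0.12, adjusted p = 0.00224), with 6.91, 6.14 and 4.83 FPKM in the controls. In both, every 1812 library was above every other U251 library. The zinc finger factors EGR1 and KLF6 rose by 0.84 ± 0.12 and 0.56 ± 0.08 (adjusted p = 0.00444 and 0.00444), but control replicates 2 and 3, at 7.57 and 7.32 FPKM, were as high in EGR1 as the 1812 libraries, at 6.89, 7.58 and 6.82 FPKM. MYC, DUSP1, FOSL1 and JUN also passed, at 0.52, 0.82, 0.51 and 0.35, and FOS and JUNB did not (-0.38 and 0.08). The list's count was 4 and 5 without 1812 replicate 2 and 3.

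Of 26 receptor tyrosine kinases and ligands tested, 5 were higher with 1812 and 1 was lower, beside 2.36% and 1.85% of all genes tested. Of the 26, 16 had a positive log2 fold change. HBEGF, a ligand of the EGF receptor, stood at 12.9, 13.4 and 13.1 FPKM with 1812 and 7.09, 8.02 and 6.94 FPKM with 1813, with 8.65, 9.24 and 8.84 FPKM in the controls (0.78 ± 0.10, adjusted p = 0.002). FGF2 was higher with 1812 than 1813 by 0.64 ± 0.11 (adjusted p = 0.0125, lost without 1812 replicate 3 at 0.057, range 1.97e-07 to 0.917). Its 1812 libraries, at 17.1, 12.3 and 14.1 FPKM, overlapped the controls, at 13.8, 12.35 and 13.2 FPKM. The 1813 libraries, at 9.13, 8.38 and 9.32 FPKM, lay below all controls. KDR, a receptor of VEGF, fell by 0.74 on the log2 scale (SE 0.16, adjusted p = 0.0241). The KDR call was lost without 1812 replicate 1, 2 or 3 or 1813 replicate 2 (0.0642, 0.0807, 0.0825 and 0.0649, range 0.000109 to 0.987). The list's median was 0.05.

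Other large gains fell in no single list. SCG2, a secretogranin of dense-core vesicles, stood at 11.8, 8.84 and 8.47 FPKM with 1812, 2.12, 3.53 and 3.21 FPKM with 1813 and 6.43, 6.02 and 4.56 FPKM in the controls (1.67 ± 0.18, adjusted p = 0.000896). ACP5, the tartrate-resistant acid phosphatase, had 11.5, 10.8 and 8.54 FPKM with 1812 and 4.68, 3.18 and 2.74 FPKM with 1813 (1.48 ± 0.19, adjusted p = 0.00212). BEX1, an adaptor expressed in neurons, had 49.7, 40.1 and 38.5 FPKM and 19.1, 13.1 and 15.2 FPKM (1.38 ± 0.15, adjusted p = 0.000984). In SCG2, ACP5 and BEX1 alike, the 1812 libraries lay above all controls, which were 5.11, 5.66 and 5.15 FPKM for ACP5 and 31.4, 20.9 and 16.5 FPKM for BEX1.

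HAS2, which makes hyaluronan, stood at 4.71, 5.64 and 6.78 FPKM with 1812 and 1.76, 2.45 and 2.16 FPKM with 1813 (1.37 ± 0.16, adjusted p = 0.00126). The linker histone gene H1-2 had 58.3, 72.5 and 80.9 FPKM and 20.3, 24.4 and 32.03 FPKM (1.41 ± 0.16, adjusted p = 0.000984), and H2AC6 rose by 0.65 ± 0.13 (adjusted p = 0.0201), so 2 of 7 replication-dependent histones tested passed. Histone genes share sequence, and their transcripts lack long poly(A) tails but are kept by ribosomal depletion, the method used here. The H2AC6 call was lost without 1812 replicate 1, 2 or 3 (0.0601, 0.121 and 0.0824, range 5.28e-07 to 0.299). APOL1, an apolipoprotein that lyses trypanosomes, rose by 1.54 ± 0.20 (adjusted p = 0.00216), and ZCCHC12, a transcriptional coactivator, by 1.85 ± 0.29 (adjusted p = 0.0068, lost without 1812 replicate 2 at 0.0611, range 1.39e-10 to 0.374).

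Matrix genes were mixed. ADAMTS1, a protease that cuts proteoglycans, rose by 1.09 ± 0.12 (adjusted p = 0.000984), from 6.37, 6.58 and 6.02 FPKM with 1813 to 11.6, 16.6 and 13.9 FPKM with 1812. TIMP3, an inhibitor of metalloproteinases, fell: 1.21, 1.26 and 0.72 FPKM with 1812 against 2.88, 2.93 and 2.29 FPKM with 1813 and 1.48, 1.68 and 1.63 FPKM in the controls (-1.40 ± 0.21, adjusted p = 0.00444). Here the 1813 libraries lay above all controls and the 1812 libraries below them. Among 27 collagens and laminins tested, 3 were higher and none lower by edgeR, beside 2.36% and 1.85% of all genes tested. The list had a median of 0.00, 9 unadjusted p under 0.05 and 1 lower by DESeq2. LAMA4 rose by 0.45 ± 0.09 (adjusted p = 0.016), but both hairpin groups were below the controls, at 7.58, 8.05 and 8.59 FPKM with 1812, 5.36, 5.79 and 5.86 FPKM with 1813 and 9.82, 13.01 and 13.03 FPKM in the controls. Its call was lost without 1812 replicate 2 or 3 or 1813 replicate 3 (0.0924, 0.078 and 0.0647, range 0.000148 to 0.374).

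Stress genes were few. STC2, a secreted glycoprotein induced by ATF4, stood at 16.8, 14.2 and 14.1 FPKM with 1812, 8.34, 7.03 and 6.78 FPKM with 1813 and 7.79, 7.20 and 7.42 FPKM in the controls (0.96 ± 0.11, adjusted p = 0.00105). DDIT3, which encodes CHOP, and DNAJB9, a chaperone of the endoplasmic reticulum, rose by 0.46 ± 0.10 and 0.51 ± 0.11 (adjusted p = 0.0243 and 0.024), and they were the only others of 28 genes of the integrated stress and unfolded protein response to pass. The latter calls were lost without 5 of the 6 libraries, the exception being 1813 replicate 1, with adjusted p of 0.0168 to 0.0977 and 0.00346 to 0.101 over the 6 fits. ADM, a vasodilator peptide and the 1 hypoxia-inducible gene of 18 that passed, rose by 0.73 ± 0.10 (adjusted p = 0.00367). That 1 of 18 stands beside 4.21% of all genes tested.

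Among genes lower with 1812, GFAP, the intermediate filament of astrocytes, stood at 2.45, 1.38 and 1.09 FPKM with 1812, 3.77, 5.68 and 5.33 FPKM with 1813 and 13.01, 10.2 and 9.44 FPKM in the controls. Both hairpin groups were below all controls, and the 1812 libraries below all 1813 libraries. The log2 fold change between hairpins was -1.64 ± 0.23 (SE, n = 3 and 3, adjusted p = 0.00367), with the call lost without 1812 replicate 2 (adjusted p = 0.0549, range 1.2e-38 to 0.0549). FABP7, a fatty acid carrier of radial glia, stood at 4.02, 3.22 and 4.03 FPKM with 1812, 6.01, 4.97 and 6.61 FPKM with 1813 and 9.69, 7.38 and 6.54 FPKM in the controls. The 1812 libraries were below all others, and 1813 replicate 3 overlapped the controls (-0.70 ± 0.15, adjusted p = 0.0274). Its call was lost without 1812 replicate 1, 2 or 3 or 1813 replicate 3 (0.0612, 0.163, 0.0872 and 0.105, range 0.000707 to 0.934). These were the 2 astrocyte markers of 11 tested that passed, beside 4.21% of all genes tested. Over the 13 astrocyte markers the summed level was 761 to 817 FPKM with 1812 and 845 to 878 FPKM with 1813.

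PAM, which amidates peptide hormones, stood at 13.2, 12.1 and 11.3 FPKM with 1812, 19.6, 21.9 and 21.4 FPKM with 1813 and 21.1, 27.3 and 26.9 FPKM in the controls (-0.83 ± 0.08, adjusted p = 0.000524), with the 1812 libraries below all others. DLG3, a synaptic scaffold, had 1.54, 1.42 and 1.43 FPKM and 2.56, 2.66 and 2.69 FPKM (-0.91 ± 0.11, adjusted p = 0.00168), and CDC34, a ubiquitin-conjugating enzyme of the cell cycle, 40.99, 41.4 and 42.1 FPKM and 75.6, 62.3 and 70.8 FPKM (-0.80 ± 0.10, adjusted p = 0.00126). CASP9, the initiator caspase of the mitochondrial death pathway, fell by 0.85 on the log2 scale (SE 0.13, adjusted p = 0.00557) and CERK, ceramide kinase, by 0.79 (SE 0.12, adjusted p = 0.00502). The last pair was lost without 1812 replicate 2 (0.06 and 0.0518, ranges 1.02e-05 to 0.336 and 2.58e-10 to 0.299). SMO, the signal transducer of the Hedgehog pathway, had -0.83 ± 0.18 (adjusted p = 0.027). With ID1 and GLI3 it made 3 of 24 Notch, Hedgehog and BMP genes that passed as lower by edgeR, with 0 higher. The shares of all genes tested were 1.85% and 2.36%. This list had 7 unadjusted p under 0.05, and 1 higher and 4 lower by DESeq2. The SMO call was lost without 1812 replicate 1, 2 or 3 or 1813 replicate 3 (0.0783, 0.0711, 0.125 and 0.0673, range 0.000226 to 0.552). Those of ID1 and GLI3 were lost without 1812 replicate 2 or 3 or 1813 replicate 2 or 3 (0.19, 0.166, 0.0569 and 0.0907 for ID1 and 0.218, 0.197, 0.12 and 0.146 for GLI3), and that of GLI3 also with upper quartile factors (0.0559), in ranges of 7.17e-07 to 0.754 and 0.00204 to 0.95.

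Mitotic genes were lower with 1812 for 6 of 30 tested and higher for none, beside 1.85% and 2.36% of all genes tested. Of the 30, 29 had a negative log2 fold change (median -0.25). CDC20, the activator of the anaphase-promoting complex, stood at 97.5, 86.5 and 83.9 FPKM with 1812, 126, 137 and 136 FPKM with 1813 and 119.5, 98.7 and 93.3 FPKM in the controls (-0.63 ± 0.08, adjusted p = 0.00224). The mitotic cyclins CCNB1 and CCNB2 fell by 0.49 and 0.64 (SE 0.10 and 0.10, adjusted p = 0.02 and 0.00689), and the kinesin KIF20A by 0.77 (SE 0.11, adjusted p = 0.00367). PLK1 and PRC1 also passed. The count was 1 and 2 without 1812 replicate 2 and 3, 16 without 1813 replicate 1 and 3 without 1813 replicate 3, and DESeq2 passed 13. The KIF20A call was lost without 1812 replicate 2 (0.0503), that of CCNB2 without 1812 replicate 2 or 3 (0.0752 and 0.0583), and that of CCNB1 without those or 1813 replicate 3 (0.146, 0.114 and 0.0749), in ranges of 2.03e-12 to 0.189, 2.88e-08 to 0.383 and 3.13e-06 to 0.82. Of 30 DNA replication genes none passed by edgeR, with 4 unadjusted p under 0.05, 1 lower by DESeq2 and a median of -0.10.

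Ribosomal protein genes were lower with 1812 for 14 of 42 tested, beside 1.85% of all genes tested. All 42 log2 fold changes were negative, with a median of -0.31. RPS3A stood at 247, 237 and 251.1 FPKM with 1812 and 355, 314 and 327 FPKM with 1813, and RPSA at 306, 274 and 291 FPKM and 418, 373 and 393 FPKM (-0.50 ± 0.08 and -0.50 ± 0.09, adjusted p = 0.0105 and 0.0105). Control replicate 1, at 287 FPKM for RPS3A, lay between the hairpins, while control replicates 2 and 3, at 158 and 159 FPKM, lay below both. These genes have many processed pseudogenes, so their counts are uncertain. The number passing was 6, 0 and 0 without 1812 replicate 1, 2 and 3 and 25, 7 and 3 without 1813 replicate 1, 2 and 3, and was 32 by DESeq2, while 39 of 42 had an unadjusted p under 0.05. The RPS3A and RPSA calls were lost without 1812 replicate 2 (0.0824 and 0.0834) or 3 (0.0547 and 0.06), in ranges of 3.45e-06 to 0.938 and 8.37e-07 to 1. The share of counts on mitochondrial genes was 1.25%, 1.74% and 1.58% with 1812 and 1.74%, 1.81% and 1.79% with 1813. The part of such library differences in these results was not tested.

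Few lysosome and autophagy genes passed, in shares to be read beside the 4.21% of all genes tested. Besides LAMP2 itself, GFAP, which takes part in the assembly of the LAMP2A complex, was the only 1 of 25 tested genes of chaperone-mediated autophagy that passed by edgeR. In that list 10 genes had an unadjusted p under 0.05 and DESeq2 passed 5 as lower and 0 as higher. HSPA8 had a log2 fold change of 0.10 ± 0.12 (adjusted p = 0.699). Of 37 lysosomal genes, 2 were higher with 1812 and 0 lower by both tools, with 10 unadjusted p under 0.05 and a median of 0.07. Among them was the protease CTSS, at 1.07 ± 0.21 (adjusted p = 0.0183). The CTSS call was lost without 1812 replicate 2 or 3 or 1813 replicate 3 (0.119, 0.0826 and 0.0662, range 3.21e-08 to 0.316). Of 35 macroautophagy genes none passed by edgeR or DESeq2, with 3 unadjusted p under 0.05 and a median of -0.03. None of 22 cholesterol synthesis genes passed by either tool, with 0 unadjusted p under 0.05, and none of 24 glycolysis genes passed by edgeR, with 7 unadjusted p under 0.05 and 3 passing by DESeq2.

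**Figure D4:**
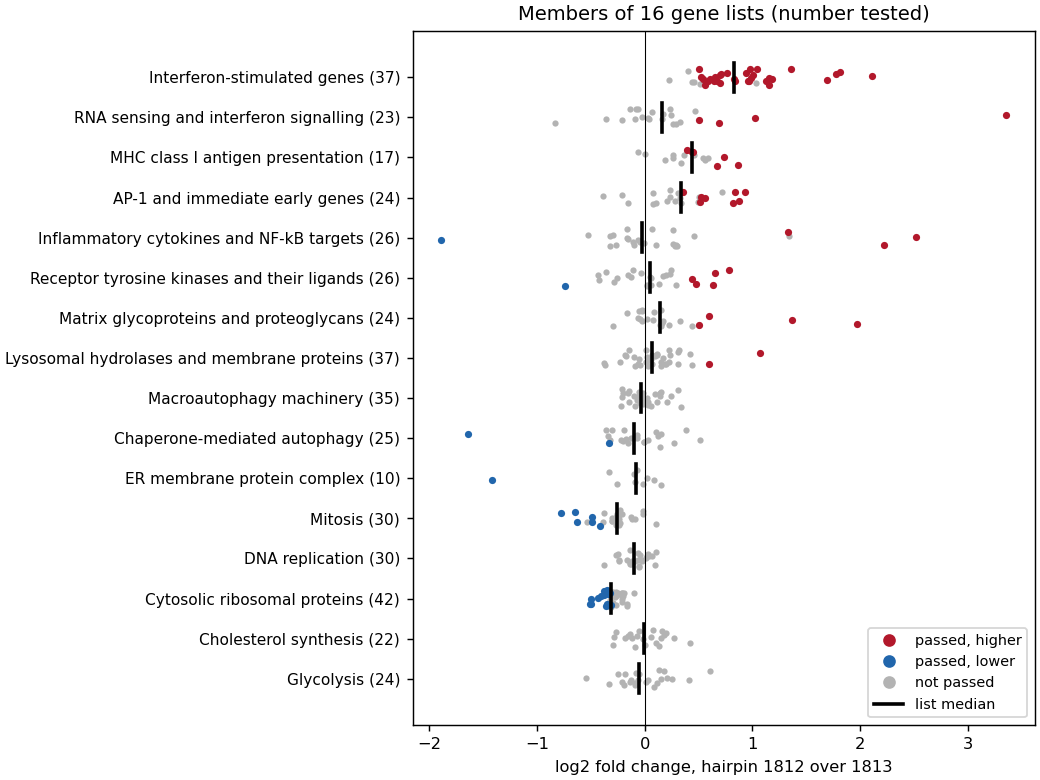
Log2 fold change of hairpin 1812 over 1813 for the tested members of 16 gene lists, with the number tested in brackets. Points in red passed as higher, points in blue passed as lower, gray points did not pass, and the bar is the list median, which lies at 0.83 for interferon-stimulated genes, 0.44 for MHC class I antigen presentation, -0.25 for mitosis and -0.31 for ribosomal proteins.

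Genes not typed as protein-coding also passed. AL606500.1, which has no type in GENCODE 29 (chr1:154671593-154678345), stood at 11.9, 9.45 and 10.1 FPKM with 1812, 2.44, 2.57 and 2.85 FPKM with 1813 and 5.37, 3.39 and 3.59 FPKM in the controls (1.94 ± 0.16, adjusted p = 0.000137). MIR155HG, the host transcript of microRNA 155, rose by 1.38 ± 0.26 (adjusted p = 0.0155), and DANCR, a host of small nucleolar RNAs, fell by 0.64 (SE 0.13, adjusted p = 0.0186). DANCR stood at 2.26, 2.59 and 2.69 FPKM with 1812 and 4.31, 3.34 and 3.63 FPKM with 1813. Its controls, at 3.47, 2.56 and 2.31 FPKM, overlapped both hairpin groups. The MIR155HG call was lost without 1812 replicate 2 or 3 (0.101 and 0.0668) and that of DANCR without 1812 replicate 1, 2 or 3 (0.0642, 0.0976 and 0.0668), in ranges of 4.39e-05 to 0.21 and 1.31e-05 to 0.853. Long intergenic RNAs took 0.398% to 0.415% of counts with 1812 and 0.321% to 0.375% with 1813.

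Genes that passed lay on every autosome and on chromosome X. At least 3 adjacent tested genes passed in the same direction at 5 places, all of them higher with 1812: IFIT2, IFIT3, IFIT1 and IFIT5 on chromosome 10, NRIR, CMPK2 and RSAD2 on chromosome 2, APOL3, APOL2 and APOL1 on chromosome 22, PARP9, DTX3L and PARP14 on chromosome 3, and PPM1K, HERC6 and HERC5 on chromosome 4. Of these runs, 4 hold members of the interferon-stimulated list, and the APOL run holds none. NRIR and CMPK2 overlap, and the strand setting of the counting is not given, so reads in the overlap cannot be assigned. Chromosome 16 held 1 gene higher and 14 lower of 642 tested, with a median log2 fold change of -0.03. Its shares were 0.16% and 2.18%, beside 2.36% and 1.85% of all genes tested. The share of lower genes was larger on other chromosomes, such as 5 (3.39%) and 22 (3.63%).

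The position of the controls relative to the hairpins differed by control library, and no test was made because the controls were outside the fit. The mean of the 3 controls lay between the hairpin means for 233 of the 350 higher genes (66.6%), above both for 47 and below both for 70. Among the 275 lower genes it lay between them for 113 (41.1%), above both for 98 and below both for 64. On the scale of log2(FPKM + 1), the mean of the 3 controls was nearer to 1813 for 209 of the 350 genes higher with 1812 (59.7%) and for 165 of the 275 lower (60.0%). Taken alone, control replicate 1 was nearer to 1813 for 276 and 229 of them, 78.9% and 83.3%. Control replicates 2 and 3 were nearer to 1813 for 179 and 142, 51.1% and 51.6%. For genes with at least a 2-fold difference, the mean of the 3 controls was nearer to 1813 for 57 of 85 higher (67.1%) and 12 of 13 lower (92.3%). Where the controls sit therefore cannot be stated for the whole set without naming the control libraries.

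In U87, another 3 libraries carry the label 1812, and none of the U87 libraries was in the U251 fit. There, LAMP2 stood at 25.2, 24.5 and 28.4 FPKM in the libraries labelled 1812 and at 18.3, 32.1 and 31.8 FPKM in the controls, which overlap, a log2 fold change of 0.02 ± 0.21 (SE, n = 3 and 3, adjusted p = 0.967). All libraries labelled 1812 were above control replicate 1 (18.3 FPKM) and below the other controls (32.1 and 31.8 FPKM). A lower level of the targeted gene was thus not shown in these libraries. With this SE a drop is not excluded either, and the counts do not separate LAMP2A, so the label could not be checked. Every U87 direction below is that of the libraries labelled 1812. U87 control replicate 1 had 1.22% of counts on mitochondrial genes, against 2.78% to 3.62% in the other 5 U87 libraries, and the part of this in the U87 values was not tested. A fit of those 6 libraries tested 14729 genes. Only LAMA4 passed by edgeR, higher in the libraries labelled 1812, and 2750 genes had an unadjusted p under 0.05. LAMA4 stood at 8.15, 7.14 and 6.92 FPKM there, above all 3 U87 controls (2.52 ± 0.17, adjusted p = 0.0164).

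Of the genes higher with 1812 than 1813 in U251, 311 were tested in U87, and 49.5% were higher in the U87 libraries labelled 1812 than in the U87 controls, beside 48.3% of all 13362 genes tested in both. Of the lower ones, 43.7% of 263 were lower in U87, beside 51.7% of all genes. For the genes at least 2-fold higher the share was 55.9% of 59, and for those at least 2-fold lower 60.0% of 10. EMC4 stood at 10.2, 12.7 and 13.3 FPKM in the U87 libraries labelled 1812 and at 37.7, 26.1 and 25.2 FPKM in the U87 controls, without overlap (-1.25 ± 0.26 on the log2 scale, adjusted p = 0.107). CPA4 stood at 32.1, 24.99 and 26.8 and 7.06, 28.2 and 28.1 FPKM, where the groups overlapped (0.52 ± 0.44, adjusted p = 0.542), and GFPT2 at 40.7, 32.6 and 31.9 and 51.5, 49.4 and 50.3 FPKM, where they did not (-0.45 ± 0.18, adjusted p = 0.242). IFIT2 stood at 3.71, 1.76 and 2.38 and 1.79, 1.24 and 1.56 FPKM, with overlap (0.83 ± 0.34, adjusted p = 0.2555). DHRS2 was low, at 0.50, 0.39 and 0.33 and 0.17, 0.16 and 0.22 FPKM, without overlap (1.21 ± 0.31, adjusted p = 0.136). Of all genes tested in both lines, 13.9% had every U87 library labelled 1812 below every U87 control, and 10.5% had every such library above. Of 35 interferon-stimulated genes tested in U87, 26 had a positive log2 fold change there, with a median of 0.46. In U87, 40 of 42 ribosomal protein genes were positive (median 0.40) and 25 of 30 mitotic genes (median 0.31). Both lists were lower with 1812 than 1813 in U251. The contrasts differ, libraries labelled 1812 over control in U87 and 1812 over 1813 in U251, so these signs do not compare like with like. Over the U251 control mean, 1812 had 0.34 for RPS3A (-0.23 over control replicate 1) and -0.21 for CDC20, in log2(FPKM + 1). U87 control replicate 1 exceeded all U87 libraries labelled 1812 for RPS3A (495 against 325 to 436 FPKM) and CDC20 (147 against 79.5 to 92.0 FPKM). The other U87 controls lay below them, and for CCNB2 all U87 controls did. All 30 DNA replication genes were positive in U87 (median 0.51), and 11 of 24 immediate early genes (median -0.10). For 1812 over 1813 in U251 the DNA replication median was -0.10.

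**Figure D5:**
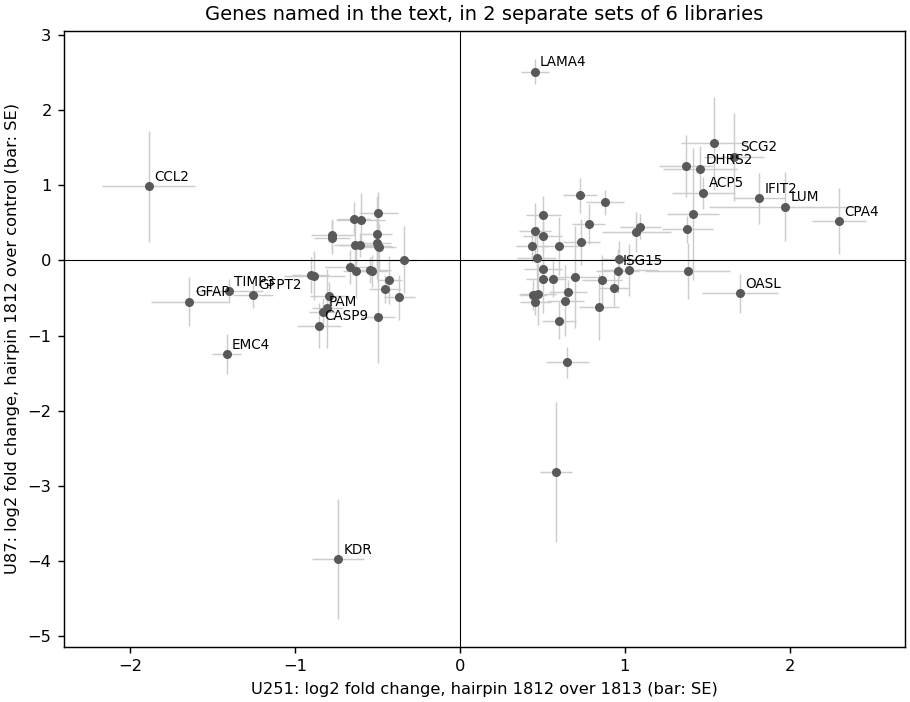
Log2 fold change of hairpin 1812 over 1813 in U251 (horizontal axis) against that of the libraries labelled 1812 over control in U87 (vertical axis) for the 75 named genes other than LAMP2 that were tested in both, with bars of 1 SE in each direction. The 2 axes come from separate libraries and differ in contrast. EMC4, GFAP, TIMP3 and GFPT2, none of which passed in U87, lie below 0 on both, and GFAP had 0.08 to 0.19 FPKM in U87. CCL2 lies below 0 in U251 and above 0 in U87. Of all genes that passed as lower in U251 and were tested in U87, 43.7% were lower there, beside 51.7% of all genes.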

How the data were processed

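Bulk RNA of 15 libraries in 5 groups of 3 was sequenced after ribosomal RNA depletion, with a strand-marking library preparation, per the labels' protocols. The deposited counts per gene are whole numbers, and the FPKM beside them are the authors' counts per exonic length and library size. The submitters' processing notes name bcl2fastq 2.17.1.14, cutadapt 1.9.1, HISAT2 2.0.1, HTSeq 0.6.1, DESeq2, bedtools 2.17.0 and GRCh38. No source used here gives the strand setting of the counting.

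The 6 libraries of U251 with hairpins 1812 and 1813 were fitted with edgeR 4.0.16 in R 4.3.3 (filterByExpr, TMM, quasi-likelihood F test, two-sided, Benjamini-Hochberg adjustment over 14842 genes). A gene passed at an adjusted p under 0.05. The SE is the log2 fold change divided by the square root of F, and every adjusted p without another tool's name is from edgeR. DESeq2 1.42.0 was an alternative. Other alternatives were RLE and upper quartile factors, 2 low-count filters, a replicate block, fits with 9 or 15 libraries and fits with libraries left out. The code was tested on simulated data. Gene types come from GENCODE 29.

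The text names LAMP2, 5 genes given with the comparison, the 15 largest gains and losses of protein-coding genes and 3 of other genes in each direction among those that passed, averaged 2 FPKM or more in whichever hairpin group was higher and did not overlap, and up to 4 passed members per list and direction. From these a selection is described, and others were chosen after their values were seen. The members and gene lists were chosen with earlier results of these data known. Some results are not reported here.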

Additional observations from a re-analysis of the deposited data

How the results depend on the processing

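LAMP2 and the 89 other genes chosen by rule kept their direction in every one of the 15 alternatives that gave them a value. Their hairpin groups did not overlap, so the direction could hardly change when libraries were left out. The number of calls differed between the fits. Genes passing as higher and lower with 1812 numbered 644 and 561 with no low-count filter, 639 and 645 with a replicate block, 44 and 20 with all 9 U251 libraries, 8 and 5 with all 15 libraries, and 1310 and 1272 without replicate 1. DESeq2 passed 506 as lower. Leaving out 1 library gave 59 to 761 higher and 21 to 622 lower. At 2-fold or more the counts were 150 and 37 with no low-count filter, 19 and 8 with 9 libraries, 5 and 4 with 15, and 182 and 59 without replicate 1, with 31 to 129 and 6 to 33 over single libraries left out. The LAMP2 log2 fold change was -0.33 with 9 libraries (adjusted p = 0.15) and -0.33 with 15 (adjusted p = 0.772), and -0.36 to -0.31 with a library left out (adjusted p 0.00888 to 0.17). The common biological coefficient of variation was 0.104 in the fit of 6 libraries, 0.147 with 9, 0.226 with 15 and 0.0489 without replicate 1.

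Of the 89 genes, 32 passed with 9 libraries, 10 with 15, and 34 to 87 with a single library left out. DESeq2 gave no adjusted p for AL596325.2, IFNB1, MMP13 and LUM. Libraries with the same replicate number deviated from their group means with correlations of 0.171, 0.083 and 0.114, not all above 0.1, so the numbers were not taken to pair the libraries. Each library correlated best with its own number, which is a hint from the data only. At these depths a gene such as IFNB1, with 6 counts over the 3 libraries with 1813, has an imprecise fold change.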

Other observations

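Genes outside the lists also differed, and those given here were chosen after their values were seen. KRT81, a hair keratin with near-identical neighbours, stood at 291, 261 and 249 FPKM with 1812, 122, 133 and 131 FPKM with 1813 and 121, 92.1 and 88.6 FPKM in the U251 controls (log2 fold change 1.00 ± 0.08, SE, n = 3 and 3, adjusted p = 0.000137 by edgeR). UGCG, which makes glucosylceramide, had 21.8, 23.02 and 23.9 FPKM with 1812, 11.6, 13.5 and 12.6 FPKM with 1813 and 13.6, 14.5 and 15.3 FPKM in the controls (0.81 ± 0.09, adjusted p = 0.000842). F3, the tissue factor that starts coagulation, had 31.2, 31.1 and 29.7 FPKM with 1812, 10.7, 16.1 and 15.1 FPKM with 1813 and 21.6, 18.9 and 20.3 FPKM in the controls (1.08 ± 0.12, adjusted p = 0.000984). These 3 genes were higher with 1812 and did not overlap between hairpins.

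CITED2, a transcriptional coregulator, rose by 0.96 ± 0.11 on the log2 scale (adjusted p = 0.000984). MAPK9, which encodes the kinase JNK2, was lower with 1812, at 3.25, 3.27 and 3.43 FPKM against 5.78, 5.31 and 5.23 FPKM with 1813 and 5.07, 5.64 and 5.17 FPKM in the controls (-0.77 ± 0.10, adjusted p = 0.00168). PXDN, which crosslinks collagen IV, fell as well, with a log2 fold change of -0.61 ± 0.08 (adjusted p = 0.0028).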
